A study of Mus musculus with 15 samples.

Results

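The genes described here are Ffar4, Ripor3, Cdhr3, Tecrl, Doc2b, Wdr62, Hoga1, Unc93a2, Neil2 and Zxda, 10 of the 55416 genes listed for mouse tibialis anterior muscle. They were chosen by their expected counts, as genes at or near 0 or low in tumour-free control muscle and much higher in tumour-bearing muscle of mice given an isotype IgG. The rise from control to IgG is therefore how the genes were picked, and it is described without a test. All 10 passed the filter on low counts over the 4 groups, Ffar4 and Ripor3 only through their counts in IgG, since neither passed within the anti-PD-L1 and anti-CD8a libraries alone.

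The study measured bulk RNA of the tibialis anterior, a fast muscle at the front of the lower leg, in 15 libraries. All mice were labelled as male C57BL/6 (C57BL/6NCrlOri), and the protocol gives an age of 6 to 8 weeks at injection. The control group (n = 5) carried no tumour, and no antibody is named for it. Mice of the IgG group (n = 4, also labelled anti-IgG) received 5000000 KrasIKKaL cells into the trachea and a rat IgG2b, clone LTF-2, whose dose is not given in the sources used here. The anti-PD-L1 group (n = 3) received the same cells and 200 μg/kg of an antibody against mouse PD-L1, clone 10F.9G2, and the anti-CD8a group (n = 3) the same cells and 200 μg of an antibody against mouse CD8a, clone 2.43, both intraperitoneally and 3 times a week. PD-L1 restrains T cells through the receptor PD-1, and antibodies against CD8a are used to deplete CD8 T cells. IgG and control mice differ in both tumour and antibody, so these cannot be told apart. Whether every library is from a different mouse is not given in the sources used here, so p-values measure the spread between libraries, which may be technical.

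The genes do not form a single pathway. Ffar4 (also called GPR120) is a cell-surface receptor for long-chain fatty acids known from fat cells, gut endocrine cells and macrophages, and Doc2b is a calcium-binding protein that helps vesicles fuse with the plasma membrane and takes part in the insulin-driven insertion of the glucose transporter GLUT4. Cdhr3 is a cadherin-related membrane protein of ciliated airway cells. Hoga1 is the mitochondrial aldolase that ends hydroxyproline breakdown, Tecrl is an enoyl reductase-like protein of heart and skeletal muscle, Wdr62 is a centrosome protein that also scaffolds the JNK kinases, and Neil2 is a glycosylase that removes oxidised bases from DNA.

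Promoters of 3 genes are shown because their levels differed most in form: Ffar4 went from almost no reads, Wdr62 was measured in every control library, and Tecrl was not confined to the IgG and anti-PD-L1 groups. Each sequence is the 250 bases before the RefSeq start site on GRCm38.p6, 5′ to 3′ on the gene's strand, with capitals marking a motif match. Ffar4 lies at chr19:38096829-38097078 on the plus strand, Wdr62 at chr7:30280422-30280671 on the minus strand and Tecrl at chr5:83355196-83355445 on the minus strand.
Ffar4: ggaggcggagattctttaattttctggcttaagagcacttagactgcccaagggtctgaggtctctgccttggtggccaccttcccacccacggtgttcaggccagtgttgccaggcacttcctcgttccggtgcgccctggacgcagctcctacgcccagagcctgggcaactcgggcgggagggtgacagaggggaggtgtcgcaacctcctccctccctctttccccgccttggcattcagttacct
Wdr62: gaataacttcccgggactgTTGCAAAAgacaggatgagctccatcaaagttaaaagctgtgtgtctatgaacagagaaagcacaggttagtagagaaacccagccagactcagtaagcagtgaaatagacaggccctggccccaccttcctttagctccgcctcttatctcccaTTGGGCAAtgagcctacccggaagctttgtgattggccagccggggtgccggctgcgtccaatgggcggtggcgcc
Tecrl: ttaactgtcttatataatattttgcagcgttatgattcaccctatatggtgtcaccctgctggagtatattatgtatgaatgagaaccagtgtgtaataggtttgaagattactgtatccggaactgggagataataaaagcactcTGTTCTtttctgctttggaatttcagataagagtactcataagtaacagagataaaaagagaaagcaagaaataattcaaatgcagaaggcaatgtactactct

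RefSeq promoters were found for 7 of the 10 genes; Doc2b, Neil2 and Zxda had no entry. Windows of 300 bases, with 50 bases after the start, were searched on both strands for 5 motifs, which can overlap. The C/EBP letters TTGCNNAA stood in Wdr62 alone among the 7 genes and in 10.8% of all 32851 promoters. The letters AGAACA, bound by the glucocorticoid receptor, stood in Tecrl alone and in 19.0% of all promoters. The FoxO letters GTAAACA, the STAT letters TTCNNNGAA and the nuclear receptor letters AGGTCA stood in none of the 7, against 3.65%, 8.30% and 16.3% of all promoters. No motif was thus shared by 2 of the genes within these windows.

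Libraries held 15894822 to 22459370 expected counts, the fractional read counts that RSEM assigns to genes. Levels below are CPM, counts relative to the library total scaled by TMM, an edgeR normalisation between libraries, and 3 counts is taken as the floor of detection. Skeletal muscle markers such as Acta1 and Ckm summed to 86930 to 121628 CPM in control and 70163 to 108295 CPM in IgG libraries, with 59765 to 94128 CPM for anti-PD-L1 and 91918 to 99845 CPM for anti-CD8a, so the labelled tissue was read in every group. In bulk tissue, fewer cells of a type and less RNA per cell cannot be told apart.

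Counts showed how near to silent each gene was in control muscle. Ffar4 had 2 counts in all 5 control libraries together, and Ripor3 had 1 to 5 counts in each. Doc2b (16 to 55 counts), Wdr62 (18 to 36) and Hoga1 (16 to 29) were measured in every control library, so "switched on" describes Ffar4 and Ripor3 better than these 3 genes. Cdhr3, Unc93a2 and Neil2 lay between, at 2 to 9 counts per control library.

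**Figure D1:**
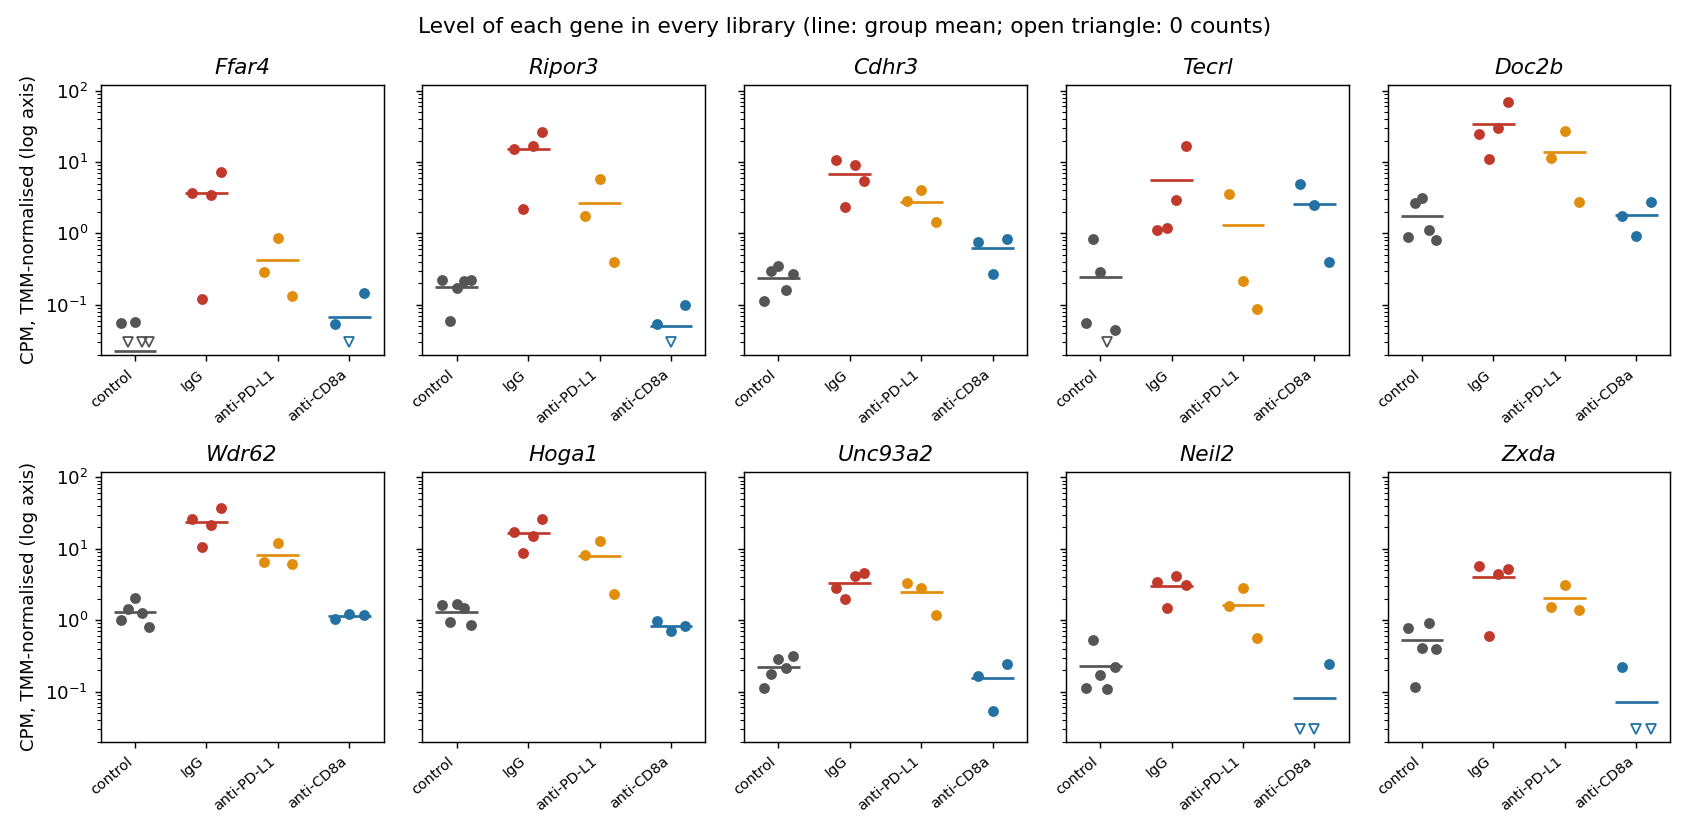
TMM-normalised CPM on a log axis for each of the 10 genes in every library of the 4 groups; points are libraries, lines are group means, and open triangles at the bottom are libraries with 0 counts. Every gene but Zxda has all 4 IgG libraries above all 5 control libraries, for Ffar4 with only 2 counts in IgG replicate 2. The anti-CD8a libraries overlap the controls for all 10 genes. For Tecrl the anti-CD8a mean, 2.61 CPM, is above the anti-PD-L1 mean, 1.31 CPM.

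Among the receptor, signalling and vesicle genes, Ffar4 measured 0.0560, 0, 0.0575, 0 and 0 CPM in the control libraries and 3.72, 0.120, 3.40 and 7.32 CPM in the IgG libraries. IgG replicate 2 held only 2 counts, under the floor, and the other 3 IgG libraries held 54 to 120. Anti-PD-L1 libraries measured 0.286, 0.856 and 0.132 CPM, and anti-CD8a libraries 0.0544, 0 and 0.148 CPM. The IgG to control ratio of pooled counts was 162, with a 95% exact counting interval of 44.3 to 1345 that covers counting error only. Ffar4 was thus read clearly in 3 IgG libraries and in no control library.

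Ripor3, a member of the RIPOR family of proteins that bind small GTPases, measured 0.224, 0.0589, 0.172, 0.216 and 0.223 CPM in control and 15.4, 2.17, 16.8 and 26.6 CPM in IgG. In anti-PD-L1 it measured 1.76, 5.87 and 0.396 CPM, and in anti-CD8a 0.0544, 0 and 0.0989 CPM. The lowest IgG library stood well above the highest control, and the 3 anti-CD8a libraries held 3 counts in total. Its IgG to control log2 fold change was 6.34 ± 0.79 (SE).

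Doc2b measured 0.897, 2.71, 3.16, 1.14 and 0.802 CPM in control and 25.1, 11.2, 30.2 and 68.8 CPM in IgG, with replicate 4 the highest. Anti-PD-L1 libraries spread from 2.72 to 27.1 CPM, with the lowest inside the control range, and anti-CD8a libraries from 0.912 to 2.77 CPM. The log2 fold change from control was 4.30 ± 0.64 in IgG and 0.08 ± 0.75 in anti-CD8a.

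Among the membrane proteins, Cdhr3 measured 0.112, 0.295, 0.345, 0.162 and 0.267 CPM in control and 10.7, 2.35, 9.13 and 5.43 CPM in IgG. Anti-PD-L1 libraries measured 2.86, 4.02 and 1.45 CPM, all above every control, and anti-CD8a libraries 0.762, 0.268 and 0.841 CPM. The markers of ciliated and airway epithelium, where Cdhr3 is best known, summed to 3.12 to 4.24 CPM in control, 9.49 to 28.9 under IgG, 3.71 to 11.1 under anti-PD-L1 and 2.41 to 3.76 under anti-CD8a. Of 11 such markers 6 were tested: Tekt1, a protein of cilia, and the keratins Krt8 and Krt18 rose in IgG (log2 fold changes 2.94, 3.42 and 2.57), Rsph1, another cilium gene, fell by 2.95, and Dnah5 and Sftpc never exceeded 3 counts. Their part in the Cdhr3 values was not tested.

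Unc93a2, a membrane protein of the UNC93 family, measured 0.112 to 0.312 CPM in control, 1.99 to 4.58 under IgG, 1.19 to 3.33 under anti-PD-L1 and 0.0536 to 0.247 under anti-CD8a. It varied least within IgG, by 2.31-fold from the lowest to the highest library. Of the 50-base windows of its main transcript 57.9% are also in its relative Unc93a, so the split of reads between both is uncertain. RSEM gave Unc93a at most 2.25 counts in a control library, 2.2 in IgG, 5.39 in anti-PD-L1 and 0 in anti-CD8a.

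Among the enzymes, Hoga1 measured 1.63, 0.942, 1.67, 1.46 and 0.846 CPM in control and 17.4, 8.60, 14.99 and 26.4 CPM in IgG. It measured 8.24, 12.8 and 2.33 CPM in anti-PD-L1 and 0.980, 0.697 and 0.841 CPM in anti-CD8a. The IgG and anti-PD-L1 libraries all lay above the controls, and 2 of the 3 anti-CD8a libraries lay just under the control range. Hoga1 starts 500 bases downstream of Ankrd2, a stretch-responsive muscle gene on the same strand, which measured 87.1 to 206 CPM in control, 519 to 1468 under IgG, 141 to 642 under anti-PD-L1 and 107 to 359 under anti-CD8a. The part of Ankrd2 reads in the Hoga1 values was not tested.

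Tecrl measured 0.0560, 0.825, 0.287, 0 and 0.0445 CPM in control and 1.12, 1.20, 2.96 and 16.8 CPM in IgG. Replicate 4 alone carried 275 of the 360 IgG counts. Anti-PD-L1 libraries measured 3.62, 0.214 and 0.0879 CPM and anti-CD8a libraries 4.90, 2.52 and 0.396 CPM. Of the 10 genes, Tecrl was the one whose anti-CD8a mean (2.61 ± 2.25 CPM, SD, n = 3) exceeded its anti-PD-L1 mean (1.31 ± 2.0, SD, n = 3). Without anti-PD-L1 replicate 1 its log2 fold change from control in that group turned from 2.45 to -0.58.

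Tecrl is best known from heart muscle, and of 8 heart markers 4 were tested. Sln, a calcium-pump regulator, rose from 2.48 to 24.8 CPM and the heart myosin Myh6 from 1.80 to 3.68 CPM between control and IgG. Tnnt2 and Myl4 were not called, and the atrial genes Myl7 and Nppa never exceeded 3 counts. Sln alone measured 1.07 to 4.42 CPM in the control libraries and 13.8 to 52.5 CPM in the IgG libraries. The list summed to 11.7 to 16.8 CPM in control, 26.3 to 67.6 under IgG, 11.7 to 46.8 under anti-PD-L1 and 12.2 to 42.1 under anti-CD8a. Its part in the Tecrl values was not tested.

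Among the centrosome and nuclear genes, Wdr62 measured 1.01, 1.41, 2.07, 1.24 and 0.802 CPM in control and 25.9, 10.7, 21.4 and 37.7 CPM in IgG. Anti-PD-L1 libraries measured 6.48, 11.9 and 6.06 CPM, and the anti-CD8a libraries 1.03, 1.23 and 1.19 CPM. Control and anti-CD8a libraries overlapped, and both groups lay below every anti-PD-L1 library. Of 8 markers of dividing cells 3 were tested: Aurka fell by 2.87 and Top2a by 1.15 on the log2 scale in IgG, and Mki67 was not called. The list summed to 5.77 to 10.96 CPM in control and 1.44 to 2.32 in IgG. Aurka alone measured 4.24 to 9.03 CPM in control and 0.732 to 1.26 in IgG. The part of dividing cells in the Wdr62 values was not tested.

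Neil2 measured 0.112, 0.530, 0.172, 0.108 and 0.223 CPM in control, 3.41, 1.5, 4.09 and 3.11 in IgG, and 1.57, 2.78 and 0.571 in anti-PD-L1. In anti-CD8a it had 0, 0 and 5 counts. All IgG and anti-PD-L1 libraries exceeded the highest control. Fdft1, a cholesterol synthesis gene 2865 bases downstream on the same strand, measured 56.3 to 67.3 CPM in control and 142 to 295 in IgG, 137 to 238.2 under anti-PD-L1 and 66.5 to 96.3 under anti-CD8a. Lying downstream on the same strand, Fdft1 is transcribed away from Neil2, whereas Ankrd2 is transcribed towards Hoga1. The part of Fdft1 reads in the Neil2 values was not tested.

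Zxda measured 0.785, 0.118, 0.402, 0.919 and 0.401 CPM in control and 5.83, 0.602, 4.47 and 5.19 CPM in IgG. IgG replicate 2 lay inside the control range, and the other 3 lay above it. Anti-PD-L1 libraries measured 1.52, 3.13 and 1.41 CPM and anti-CD8a libraries 0.218, 0 and 0 CPM. GENCODE M21 annotates Zxda as an unprocessed pseudogene, and 98.1% of its 50-base windows are also in Zxdb, a zinc-finger gene of the same family. The sum of both genes was 3.95 to 4.81 CPM in control, 7.82 to 13.6 under IgG, 6.11 to 11.4 under anti-PD-L1 and 3.86 to 4.46 under anti-CD8a, so the order of groups remained in the sum, but the share of each gene is uncertain.

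Taking the 10 genes together, IgG and control libraries did not overlap for 9, all higher in IgG, where 24.3% of the 14372 genes tested were higher without overlap. For Ffar4 the lowest IgG library held 2 counts, under the floor of 3. The median log2 fold change was 4.25 (2.92 to 7.02) for the 10 and -0.02 for all genes. Those values restate the choice. The 4 comparisons that follow share either the control or the IgG libraries used for that choice.

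Anti-PD-L1 libraries lay above all controls for 8 of 10 genes, Tecrl and Doc2b being the others, beside 21% of all genes. The median log2 fold change was 2.91 (1.93 to 3.95). For Ffar4 the lowest anti-PD-L1 library held 3 counts, at the floor. Anti-CD8a libraries lay above all controls for 0 of 10, beside 5.18% of all genes, and the median was -0.33, from -2.79 for Zxda to 3.46 for Tecrl. Against IgG, anti-CD8a libraries were all lower for 8 of 10, Ffar4 and Tecrl being the others, beside 24.7% of all genes, with a median of -4.37 (-8.01 to -1.09).

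Against IgG, anti-PD-L1 was lower on average for all 10 genes, with a median log2 fold change of -1.3 (-3.07 for Ffar4 to -0.46 for Unc93a2), but the libraries overlapped for every gene, where 4.49% of all genes were lower without overlap. Without IgG replicate 2, 7 of the 10 genes were lower in every anti-PD-L1 library, and the share over all genes rose to 12.3%.

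A test was run between the anti-PD-L1 and anti-CD8a libraries, which the rule for choosing the genes does not name. Earlier results of these data were known at that choice, so the test is not fully independent of it. Over all genes, 4988 were called between anti-PD-L1 and control, 791 between anti-PD-L1 and IgG and 2 between anti-CD8a and control. The shares over all genes given below are therefore not those of genes that rise in IgG. With edgeR's quasi-likelihood test and Benjamini-Hochberg adjustment over 14372 genes, 8 of the 10 were higher in anti-PD-L1 at an adjusted p under 0.05 and 0 were lower. Ffar4 and Ripor3 entered this test only through the IgG libraries; with both groups fitted alone the other 8 were tested and 7 were higher, all but Tecrl. Of all genes, 19.7% were called in either direction and 12.1% were called higher (1738 higher and 1098 lower, or 1232 and 1502 with upper-quartile scaling). In 7 of the 10 genes every anti-PD-L1 library exceeded every anti-CD8a library, beside 21.7% of all genes. The median log2 fold change was 3.06 for the 10 and 0.05 for all genes.

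Of the nuclear genes, Zxda was higher by 4.72 ± 1.01 on the log2 scale (SE; edgeR adjusted p = 0.0061), Neil2 by 4.15 ± 0.86 (edgeR adjusted p = 0.0051) and Wdr62 by 2.82 ± 0.43 (edgeR adjusted p = 0.0011), each in 3 of 3 libraries. The anti-CD8a side of Zxda, Neil2 and Ripor3 held 5 counts or fewer, so the sizes of these 3 changes are loosely set. Zxda also shares 98.1% of its 50-base windows with Zxdb, so its change depends on how RSEM split their reads. The sum of both was 6.11 to 11.4 CPM under anti-PD-L1 and 3.86 to 4.46 CPM under anti-CD8a. The ratio of pooled Ripor3 counts was 58.2, with a 95% counting interval of 19.6 to 285.1.

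Ripor3 differed by 5.51 ± 1.25 (edgeR adjusted p = 0.0081), in a test it entered only through its IgG counts. Unc93a2 was higher by 3.91 ± 0.54 (edgeR adjusted p = 0.00066), Hoga1 by 3.21 ± 0.54 (edgeR adjusted p = 0.0016) and Cdhr3 by 2.14 ± 0.55 (edgeR adjusted p = 0.014), again in 3 of 3 libraries. Doc2b was higher by 2.91 ± 0.78 (edgeR adjusted p = 0.017), although anti-PD-L1 replicate 3, at 2.72 CPM, lay under the highest anti-CD8a library. Ffar4 differed by 2.51 ± 1.3 (edgeR adjusted p = 0.18) and Tecrl by -1.01 ± 1.20 (edgeR adjusted p = 0.58), and neither passed. Without anti-PD-L1 replicate 2 the count fell from 8 to 5: Ripor3 (edgeR adjusted p = 0.051), Cdhr3 (0.072) and Doc2b (0.12) no longer passed. Cdhr3 (0.069) and Doc2b (0.077) were also lost without anti-CD8a replicate 2, and Doc2b (0.065) without anti-CD8a replicate 1.

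**Figure D2:**
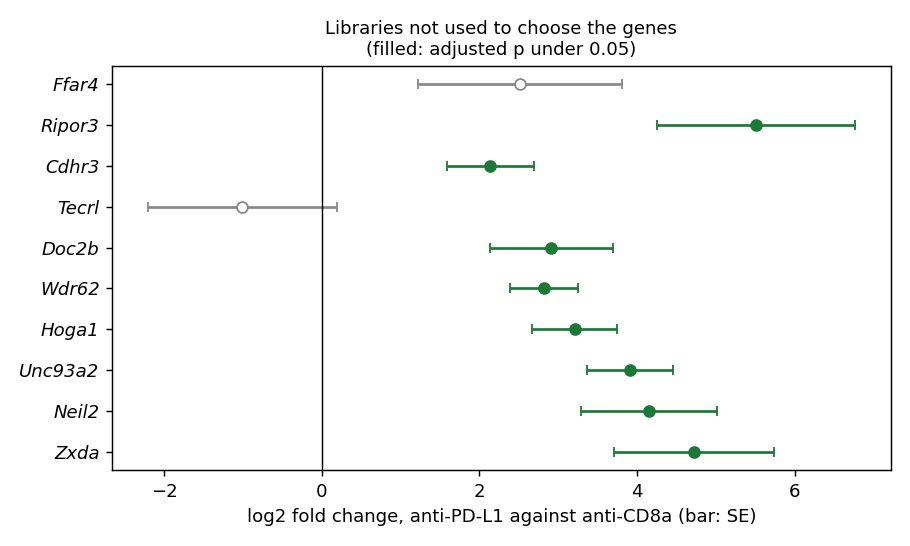
Log2 fold change of each gene in anti-PD-L1 (n = 3) against anti-CD8a (n = 3) libraries from the edgeR fit, with bars of 1 SE; filled points have an adjusted p under 0.05. The 8 filled points lie right of 0, from 2.14 for Cdhr3 to 5.51 for Ripor3, and Ffar4 and Tecrl are open. Ripor3 and Ffar4 passed the filter on low counts only through their IgG counts, and the spread was estimated over all 4 groups.

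Within a group the genes tended to be high or low in the same libraries. IgG replicate 2 was the lowest IgG library for 9 of 10 genes and replicate 4 the highest for 7; the 10 genes summed to 111, 40.4, 111 and 202 CPM in IgG replicates 1 to 4. Anti-PD-L1 replicate 3 was the lowest of its group for 10 of 10 and replicate 2 the highest for 8, with sums of 41.0, 71.6 and 16.3 CPM. Control sums were 3.92 to 8.62 CPM and anti-CD8a sums 5.69 to 9.91 CPM, so the lowest anti-PD-L1 library still lay above every library of those groups. The ranks of libraries were not counted over all genes, so this pattern is not shown to be particular to the 10. Over all genes, leaving out IgG replicate 2 moved the calls in anti-PD-L1 against IgG from 791 to 2604.

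Levels between genes were compared per length, in TPM, the length-corrected share of transcripts that RSEM gives. In IgG muscle Hoga1 was highest at 13.8 ± 7.32 TPM (SD, n = 4), followed by Cdhr3 (12.4 ± 6.35), Wdr62 (10.9 ± 5.08), Ripor3 (9.26 ± 6.97) and Doc2b, neighbours that did not differ beyond their spread. Ffar4 (3.28 ± 2.96 TPM), Tecrl, Neil2 (1.98 ± 0.82), Zxda (1.73 ± 1.05) and Unc93a2 (1.45 ± 0.59) came lower. In control, Hoga1 (0.88 ± 0.22 TPM, n = 5) and Wdr62 (0.63 ± 0.45) were highest and Ffar4 (0.016 ± 0.022) was lowest.

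The length that RSEM gives a gene is the mean length of its isoforms, weighted by their estimated shares, and it was not used to choose the genes. It was read only in libraries with at least 20 counts of the gene, and isoforms are those of GENCODE M21, whose identifiers matched 97.1% of the transcripts listed. The coding isoform of Cdhr3 is 2953 bases long, and its noncoding isoforms are 604, 881 and 1209 bases. Its weighted length was 751 to 839 bases in the 4 IgG libraries and 805 to 896 bases in the 3 anti-PD-L1 libraries. The coding isoform can then make up at most 10.0% of the estimated Cdhr3 transcripts in IgG and 12.4% in anti-PD-L1, so most of the Cdhr3 signal was assigned to short noncoding isoforms.

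Ripor3 has a coding isoform of 3580 bases, a processed transcript of 3499 and retained-intron isoforms of 558 and 1177. Its weighted length was 1785 to 2214 bases in IgG, which allows the coding isoform at most 54.8% of transcripts, and 1810 to 2015 bases in 2 anti-PD-L1 libraries. Wdr62, with a longest coding isoform of 4742 bases, stood at 2231 to 2794 bases under IgG, 2217 to 2897 under anti-PD-L1 and 1113 to 3729 for 3 control libraries, and the groups overlapped. Hoga1 stood at 1490 to 1526 bases in IgG, near its longest coding isoform of 1668 bases. Unc93a2 stood at 2649 bases, the length of its coding isoform, in all 4 IgG libraries. Ffar4, Doc2b and Zxda have a single isoform.

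**Figure D3:**
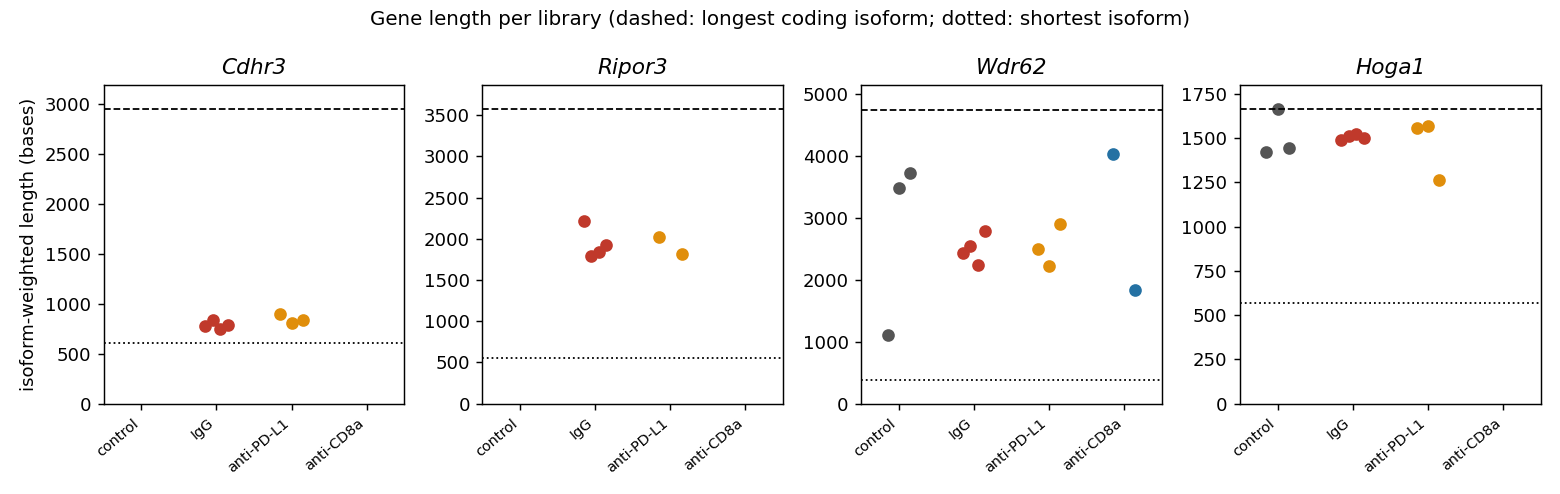
Isoform-weighted length in bases of Cdhr3, Ripor3, Wdr62 and Hoga1 in each library with at least 20 counts of the gene, by group; the dashed line is the longest coding isoform and the dotted line the shortest isoform. Cdhr3 points lie at 751 to 896 bases, close to the dotted line, and Hoga1 points in IgG lie at 1490 to 1526 bases, close to the dashed line.

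The gene loci on GRCm38 are spread over 9 chromosomes. Ffar4 spans chr19:38097071-38114263 and Hoga1 chr19:42045610-42070953, both on the plus strand. On the minus strand lie Ripor3 (chr2:167980164-168010618), Cdhr3 (chr12:33033796-33092875), Tecrl (chr5:83278145-83355195), Doc2b (chr11:75768966-75796049), Wdr62 (chr7:30240138-30280419), Unc93a2 (chr17:7362815-7385464), Neil2 (chr14:63182443-63193856) and Zxda (chrX:94795563-94798183). Coordinates come from GENCODE M21, since the build of the deposited tables is not given in the sources used here. Annotated genes that overlap these loci held few reads: Thap8, opposite to Wdr62, held at most 18.65 counts summed over a group and 4933411K16Rik, within Hoga1, at most 16, and the others at most 3.

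Other genes of the same families and pathways were taken by function: 85 genes in 10 lists, of which 60 passed the filter. Between IgG and control, 35 were called, 16 higher and 19 lower (12 and 27 with upper-quartile scaling, which moved the median of all genes from -0.02 to -0.27). That is close to the 58.5% of all genes called in either direction. Between anti-PD-L1 and anti-CD8a, 11 of 60 were called, 6 higher and 5 lower, close to the 19.7% over all genes; without anti-CD8a replicate 2 the count was 4, without anti-CD8a replicate 1 it was 5, without anti-PD-L1 replicate 2 it was 6 and without anti-CD8a replicate 3 it was 7. The relatives thus moved in both directions.

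Of 7 receptors related to Ffar4 by ligand, 1 passed the filter and it was not called, and Ffar3 was at 0 in every library. Fat cells, where Ffar4 is well known, gave no called marker of 8 tested in IgG. Their log2 fold changes had a median of 1.12, with -0.29 for Fabp4 and 2.06 ± 0.92 (SE) for Cidec. Adipoq, a fat-cell hormone, measured 0.811 to 4.32 CPM in control and 0.252 to 19.97 CPM in IgG. Between anti-PD-L1 and anti-CD8a the median of the fat-cell markers was 1.86, and 0 were called. Macrophages also carry Ffar4, and 7 of 7 macrophage markers tested were lower in IgG, beside 4075 of all 14372 genes called lower. Among them were Csf1r and Adgre1 (log2 fold changes -1.23 and -2.0). The list summed to 93.1 to 171 CPM in control, 38.6 to 80.1 under IgG, 177 to 578 under anti-PD-L1 and 65.0 to 223 under anti-CD8a. Between anti-PD-L1 and anti-CD8a, 5 of the 7 were higher and 0 lower, beside 12.1% of all genes called higher. The part of either cell type in the Ffar4 values was not tested.

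Of the 5 RIPOR and small GTPase genes tested, Ripor2 fell by 1.48 ± 0.32 (log2, SE) in IgG and Rhob rose by 0.61 ± 0.23, a call lost with upper-quartile scaling and without any of 5 single libraries. None of the 4 other cadherin-related genes passed the filter. Of 9 DOC2 and vesicle-fusion genes tested, 1 rose and 3 fell. Unc13a, a priming factor of synapses, fell by 1.76 ± 0.46, and Unc13d, a priming factor of blood cells, rose by 1.58 ± 0.48. The Unc13d call was lost without IgG replicate 4. Unc13b fell by 0.93 ± 0.31 in anti-PD-L1 against anti-CD8a, a call lost in 9 of 12 alternatives, among them the omission of any of 5 single libraries of those groups.

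Of 11 fatty-acid elongation genes tested beside Tecrl, 2 rose and 5 fell in IgG. Hacd1, the muscle dehydratase of the cycle, fell from 62.0 to 9.86 CPM (log2 fold change -2.65 ± 0.28), and was also lower in anti-PD-L1 than in anti-CD8a by 1.43 ± 0.31 (edgeR adjusted p = 0.0071). Hacd4 fell by 1.73 ± 0.49, and the elongase Elovl3 rose by 2.47 ± 0.51 from 0.291 CPM. Of 5 hydroxyproline and glyoxylate genes tested beside Hoga1, proline dehydrogenase Prodh rose by 1.57 ± 0.28. Lactate dehydrogenase Ldha fell by 1.51 ± 0.25 (2294 to 808 CPM) and Aldh4a1, the next enzyme of proline breakdown, fell by 0.61 ± 0.12. Prodh2 and Agxt of the same list were at 0 in every library. Aldh4a1 was also lower in anti-PD-L1 than in anti-CD8a, by 0.60 ± 0.14 (edgeR adjusted p = 0.011), but not without anti-CD8a replicate 2.

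Of 9 centrosome and JNK genes tested beside Wdr62, 4 rose and 2 fell. Mcph1, another gene of brain size, rose by 1.29 ± 0.15, the WDR62 paralogue Mapkbp1 rose by 0.86 ± 0.21 and the centriole gene Cenpj fell by 1.41 ± 0.32. Mcph1 was also higher in anti-PD-L1 than in anti-CD8a by 0.80 ± 0.19 (edgeR adjusted p = 0.0089, and 0.053 with those groups fitted alone), and the JNK kinase Mapk9 was lower by 0.59 ± 0.17 (edgeR adjusted p = 0.021), which no longer passed when anti-PD-L1 replicate 1 or anti-CD8a replicate 1 was left out or with a replicate block. Of the UNC93 family, Unc93b1, which carries Toll-like receptors to endosomes, fell by 0.96 ± 0.30 in IgG.

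Of 15 base excision repair genes tested beside Neil2, 5 rose and 4 fell in IgG. The glycosylases moved both ways: Ung, Neil1 and Mbd4 fell by 1.51 ± 0.22, 1.35 ± 0.26 and 1.33 ± 0.37, and Ogg1, Tdg and Mpg, named after their values were seen, rose by 0.92 ± 0.27, 0.60 ± 0.14 and 0.48 ± 0.20. Nthl1, Mutyh and Smug1 did not pass the test. Between anti-PD-L1 and anti-CD8a, 3 of these 15 genes were called higher and 1 lower, beside 19.7% of all genes called in either direction. The lower one was Ung, by 1.06 ± 0.26 (edgeR adjusted p = 0.012), which no longer passed when anti-CD8a replicate 2 was left out. Of the ZXD genes, Zxdc rose by 1.63 ± 0.22 in IgG (16.7 to 51.6 CPM) and Zxdb by 0.93 ± 0.17, while Ciita, the MHC class II regulator that ZXD proteins bind, fell by 2.31 ± 0.45. Zxdc and Zxdb were also called higher in anti-PD-L1 than in anti-CD8a (0.87 ± 0.27 and 0.61 ± 0.20), but the Zxdc call was lost in 7 of 12 alternatives and the Zxdb call in 10 of 12, each without any of 4 single libraries.

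**Figure D4:**
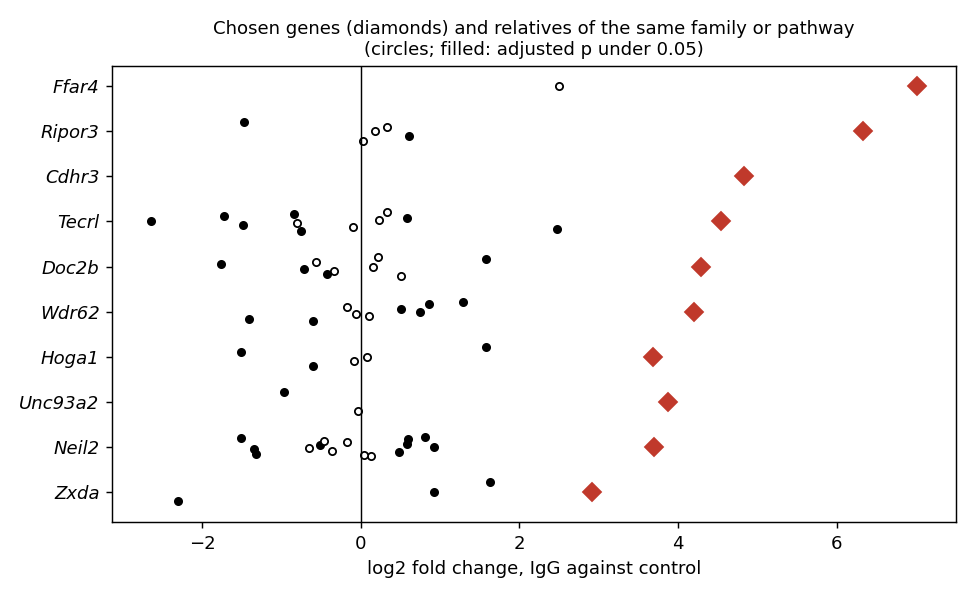
Log2 fold change in IgG (n = 4) against control (n = 5) of the chosen genes (diamonds) and of their tested relatives (circles, filled where the edgeR adjusted p was under 0.05), on the row of the gene they belong to. Circles lie on both sides of 0, with 16 filled to the right and 19 to the left, and Cdhr3 has no tested relative.

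Genes with the most similar pattern were ranked over the 15 libraries by the root mean square difference of mean-centred log2 CPM, which gives distances of 0.38 to 1.17. The 15 include the control and IgG libraries used to choose the genes. Nearness to other genes that rise in IgG thus partly restates the choice, and a shared function was not tested. Tecrl lay nearest to the slow-fibre genes Myh7 (0.74) and Tnni1 (0.81). Wdr62 lay nearest to Runx1 (0.43), a transcription factor that rises in denervated muscle, and Retreg1 (0.45), and Cdhr3 to Abcc8 (0.50) and Retreg1 (0.54). Doc2b lay nearest to the cell-cycle inhibitor Cdkn1a (0.59) and Il6ra (0.66), and Ripor3 to Cdkn1a (1.10) and Snhg12 (1.17).

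Unc93a2 lay nearest to Eif4ebp1 (0.38), a brake on translation, and Gpnmb (0.45), and Hoga1 to Mustn1 (0.50) and Mocs1 (0.52). Neil2 lay nearest to Igfbp3 (0.61) and Fbxo32 (0.66), the atrophy ubiquitin ligase also called atrogin, Zxda to Igfbp3 (0.94) and Sh3bp2 (0.97), and Ffar4 to Itpkc (0.74) and Snhg12 (0.85). Of 7 tested genes known from denervated fibres, 4 rose in IgG and 0 fell, beside 4335 of all 14372 genes called higher. Runx1 rose from 2.19 to 26.2 CPM, the embryonic myosin Myh3 from 1.85 to 8.42, Ncam1 from 4.04 to 6.33 and Chrna1 from 12.5 to 18.7. Myog, Chrnd and Myh8 were not called, and Chrng, not tested, measured 0.183 CPM in control and 0.046 CPM in IgG. Whether fibres were denervated was not tested.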

How the data were processed

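Expected counts and TPM per gene, and an isoform-weighted length, were deposited by the authors for each of the 15 libraries; per the submitters' processing notes the tools were Trim Galore, STAR 2.7.9a and RSEM 1.3.3. The genome build, annotation and strand setting are not given in the sources used here; libraries were made with a directional kit, per the labels' protocols. Expected counts were rounded and fitted with edgeR 4.0.16 (limma 3.58.1, R 4.3.3): TMM, filterByExpr, 4 groups in a quasi-likelihood fit with 11 residual degrees of freedom, which left 14372 genes, and Benjamini-Hochberg adjustment at 0.05. SE is the absolute log2 fold change over the square root of F. CPM uses the total expected count times the TMM factor. The code was tested on simulated data. Members and lists were chosen with earlier results of these data known. All 10 genes were named; of the relatives, at most 3 per list called in IgG against control and 2 called in anti-PD-L1 against anti-CD8a, some of which are not reported here; as similar genes, the nearest 2 with a mean of at least 1 CPM. Replicate numbers were not taken to pair libraries, since no pair of groups had all same-numbered correlations above 0.1. Alternatives were upper-quartile scaling, DESeq2 1.42.0, no filter, 2 groups fitted alone, a replicate block and leaving out libraries. Isoforms and coordinates come from GENCODE M21 by identifier; genes within 5000 bases were counted as neighbours. Counting intervals are exact binomial.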

Additional observations from a re-analysis of the deposited data

Results flagged for a closer look

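Among 32 genes checked in control and IgG (64 groups of libraries), 4 had a library far from the others, where chance flags about 5% of groups. Tecrl in IgG replicate 4 measured 16.8 CPM, and the next library 2.96 CPM. Neil2 in control replicate 2 measured 0.530 CPM, above the next at 0.223 CPM. Aldh4a1 in IgG replicate 4 measured 34.5 CPM, below the next at 47.6 CPM. Mapkbp1 in control replicate 1 measured 4.03 CPM, below the next at 5.71 CPM.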

How the results depend on the processing

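The 8 calls among the 10 genes in anti-PD-L1 against anti-CD8a were kept with upper-quartile scaling, DESeq2, no filter and the replicate block; 7 were kept when the libraries numbered 2 of IgG and anti-PD-L1 were both left out, and 5 to 8 without single libraries. With both groups fitted alone 8 of the 10 were tested and 7 called; Ripor3 and Ffar4 were not tested there. Relatives called there numbered 11; 5 were called with both groups fitted alone, 7 when the libraries numbered 2 of IgG and anti-PD-L1 were both left out, and 4 to 11 without single libraries, of which 4 to 9 were among the 11. Between IgG and control, 30 to 39 relatives were called over the settings, beside 35. Genes with anti-CD8a libraries above all controls numbered 0 to 1 without single libraries. Genes with all anti-PD-L1 libraries below IgG numbered 0 to 7 without single libraries (5.79% to 16.8% of all genes, against 4.49% with all) and 8 without both named above (22.7% of all genes). Tecrl in anti-PD-L1 against control had a log2 fold change of -0.58 to 3.70 without single libraries, negative without anti-PD-L1 replicate 1 and 2.45 with all.

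No pair of groups had a correlation above 0.1 in every same-numbered pair of libraries. Correlations were -0.18 to -0.05 over 4 pairs of IgG and control, -0.09 to -0.0045 over 3 pairs of anti-PD-L1 and anti-CD8a and -0.35 to -0.0082 for anti-PD-L1 and IgG, with 0 libraries best with their own number. They were -0.13 to 0.18 for anti-PD-L1 and control (2 of 3 best with their own number), -0.011 to 0.13 for anti-CD8a and control (1 of 3) and -0.063 to 0.13 for anti-CD8a and IgG (1 of 3). With the replicate block, 8 of the 10 genes, 30 relatives between IgG and control and 5 relatives between anti-PD-L1 and anti-CD8a were called; Unc13d and Unc93b1 lost their IgG calls and Unc13b, Mapk9, Zxdc and Zxdb theirs in anti-PD-L1 against anti-CD8a, and over all genes in anti-PD-L1 against anti-CD8a 1722 were called in place of 2836. Counts under the floor of 3 limit the sizes of Ffar4, Ripor3, Neil2 and Zxda changes.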
